A study of Arabidopsis thaliana with 6 samples.

Results

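Transcript signals of 3 pectin-modifying enzyme genes were followed in Arabidopsis thaliana root tips: AT1G65570, a polygalacturonase of the root cap, AT3G59850, a polygalacturonase-like gene, and AT2G47550, a pectin methylesterase-like gene. They were chosen by locus, with earlier results of these arrays known, and a gene with several probe sets would have been read by the one with the highest mean over the arrays. Each had 1 probe set naming it alone, so no choice between probe sets arose, and they are 3 of the 13355 genes that could be named. The mutant carried athb8-11, cna-2, the PHB allele phb-13 and the PHV allele phv-6. These hit 4 of the 5 HD-ZIP III genes, a family of homeodomain-leucine zipper transcription factors that pattern the vascular tissue, and leave REV. The control was Col er-2, the submitters' wild type, which carries an allele of ERECTA. The mutant's labels do not name er-2, so whether it shares that allele is not stated here. Each genotype had 3 samples, called biological replicates in the design text, and a sample pooled the last 0.5 mm of about 200 primary roots cut by hand from untreated seedlings 4 days after germination. Total RNA, 250 ng a sample, was hybridised to Affymetrix ATH1 arrays.

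Pectin fills the primary wall and the middle lamella that joins neighbouring cells, and its main polymer, homogalacturonan, is secreted with methyl groups on its galacturonic acid units. Pectin methylesterases remove these groups, which lets calcium cross-link the chains or opens them to cleavage, and proteinaceous inhibitors hold the methylesterases back. Polygalacturonases hydrolyse the demethylated chain and pectate lyases cleave it by elimination. In the root tip such cleavage is known from the outer root cap, whose cells detach as sheets or border-like cells, and AT1G65570 was named for its expression there.

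All signals below are log2 values of 1 probe set on 1 array, on which a difference of 1 is a doubling of signal. Array medians lay between 5.56 and 5.59, at 5.593, 5.589 and 5.587 in the mutant and 5.558, 5.565 and 5.571 in Col er-2. Every mutant median was thus above every wild-type median. Pairs of arrays correlated at 0.989 to 0.996 across probe sets. Component 1 of a principal component analysis, with 41.4% of the variance, did not follow genotype. Wild-type replicate 1 scored -28.1 and mutant replicate 1 -11.4 on it, and the other arrays scored between -0.96 and 18.5. Because replicate 1 of both genotypes stood apart, differences are also given without these arrays for the 3 enzyme genes and for some others. This alternative was added after the data were seen. Of the mutated genes PHV alone had a named probe set, with signals of 4.64, 4.93 and 4.66 in the mutant and 5.49, 5.80 and 5.68 in Col er-2. Across the 22746 probe sets tested with limma, 6 passed a Benjamini-Hochberg adjusted p under 0.05, or 0.0264%, and none of the 3 enzyme genes was among them.

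AT1G65570, whose product cleaves demethylated homogalacturonan in the root cap, gave signals of 8.72, 8.70 and 9.19 on mutant arrays 1, 2 and 3. On the wild-type arrays they were 8.73, 7.95 and 8.64. The genotypes overlapped, since wild-type array 1 lay above 2 of the mutant arrays, and the low value was that of wild-type array 2 alone. The means were 8.87 ± 0.28 (SD, n = 3) in the mutant and 8.44 ± 0.42 in Col er-2, a difference of 0.43 with a 95% confidence interval of -0.072 to 0.93. The limma fit gave it an adjusted p of 0.740 (Benjamini-Hochberg). This is the only one of the 3 genes with a higher mean in the mutant, and the difference depended on single arrays. It was 0.18 (-0.20 to 0.57) without wild-type replicate 2, the lowest array, and 0.27 without mutant replicate 3, the highest. Without replicate 1 of both genotypes the difference was 0.65 (0.05 to 1.24), with an adjusted p of 0.794 in limma. That interval was read after the highest wild-type array, replicate 1, had been left out.

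AT3G59850, a polygalacturonase-like gene, had mutant signals of 6.52, 6.25 and 6.23. The wild-type signals were 7.05, 6.90 and 7.01. Every mutant array was below every wild-type array, as for 5.57% of all probe sets, and the highest mutant value came from replicate 1. The means of 6.33 ± 0.16 (SD, n = 3) and 6.99 ± 0.08 differed by -0.65, with a 95% confidence interval of -0.88 to -0.42, which is 1.57-fold lower in signal. By p it ranked 30th of the 22746 probe sets, and with an adjusted p of 0.146 in the limma fit it did not pass the threshold. Since the gene was chosen with such values known, rank and p describe it and add no independent support. Leaving out any 1 array kept the difference between -0.74 and -0.60, with limma adjusted p of 0.125 to 0.600. Without replicate 1 of both genotypes the difference was -0.71.

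AT2G47550, a pectin methylesterase-like gene, had mutant signals of 7.47, 5.55 and 5.79. In Col er-2 they were 8.21, 6.78 and 6.45. Replicate 1 was the highest array in both genotypes, by 1.80 over the mean of replicates 2 and 3 in the mutant and by 1.59 in Col er-2. These gaps are larger than the difference between genotypes, -0.88, whose 95% confidence interval ran from -2.20 to 0.44 (limma adjusted p = 0.803). The SDs were accordingly wide, with means of 6.27 ± 1.05 (n = 3) in the mutant and 7.15 ± 0.93 in Col er-2. Leaving out wild-type replicate 1 gave a difference of -0.35 and leaving out mutant replicate 2 one of -0.52, and it was -1.48 without mutant replicate 1. Without replicate 1 of both genotypes, an alternative added after the data were seen, the 2 mutant arrays lay below the 2 wild-type arrays. That difference was -0.95 (-1.30 to -0.60), with an adjusted p of 0.191 in the limma fit of those 4 arrays. Its interval was read after the highest array of each genotype had been left out. The share of all probe sets with the genotypes apart on those 4 arrays was not counted.

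**Figure D1:**
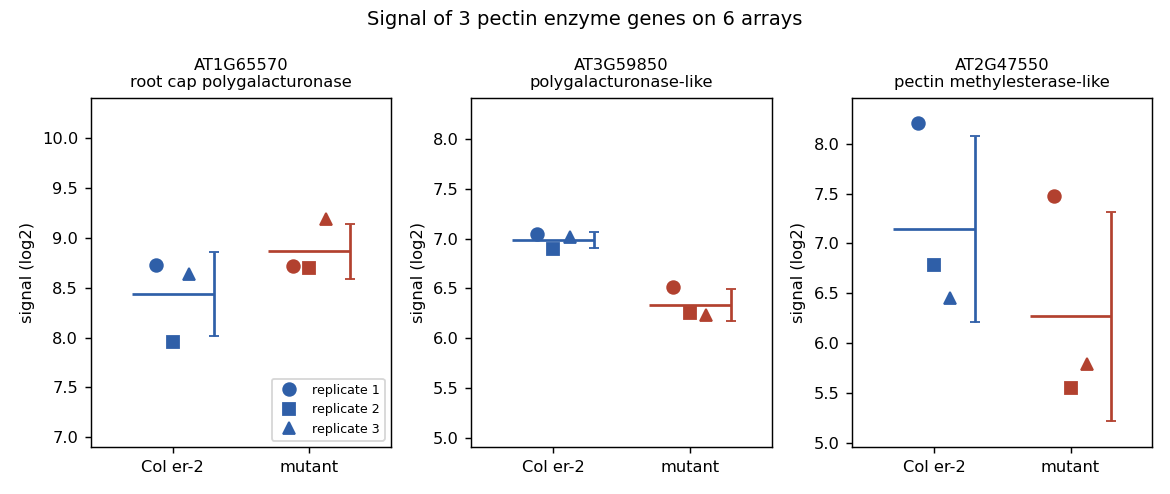
Signal (log2) of AT1G65570, AT3G59850 and AT2G47550 on each array, blue for Col er-2 and red for the mutant, with the replicate number as the marker shape, a line at the mean and a bar of 1 SD (n = 3). The genotypes are apart only for AT3G59850. For AT1G65570 1 wild-type array is low and 1 mutant array is high, and for AT2G47550 replicate 1 is the highest array of each genotype. The 3 axes span the same number of log2 units.

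**Figure D2:**
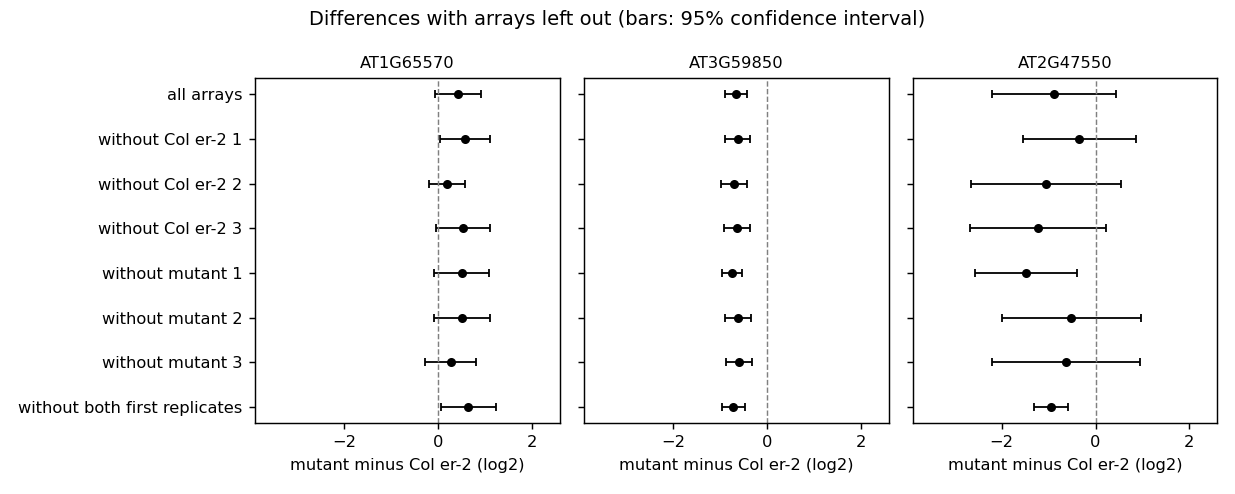
Mutant minus Col er-2 difference (log2) of each gene with all arrays, with each array left out and without replicate 1 of both genotypes, with bars for the 95% confidence interval of the limma fit. AT3G59850 stays between -0.74 and -0.60 with 1 array left out, whereas AT2G47550 runs from -1.48 to -0.35.

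The 3 genes differed in their course over the arrays. Over the 6 arrays the signal of AT2G47550 correlated with the score on the first principal component at a Pearson r of -0.97, that of AT3G59850 at -0.53 and that of AT1G65570 at 0.11. With the second component, on which the genotypes were apart, r was 0.79 for AT3G59850, 0.16 for AT2G47550 and -0.30 for AT1G65570. Between the genes r was 0.67 for AT3G59850 with AT2G47550, -0.54 for AT3G59850 with AT1G65570 and -0.21 for AT2G47550 with AT1G65570. These values describe 6 arrays that share a normalization and 2 genotypes, and no p is given for them. What the first component measures was not tested.

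**Figure D3:**
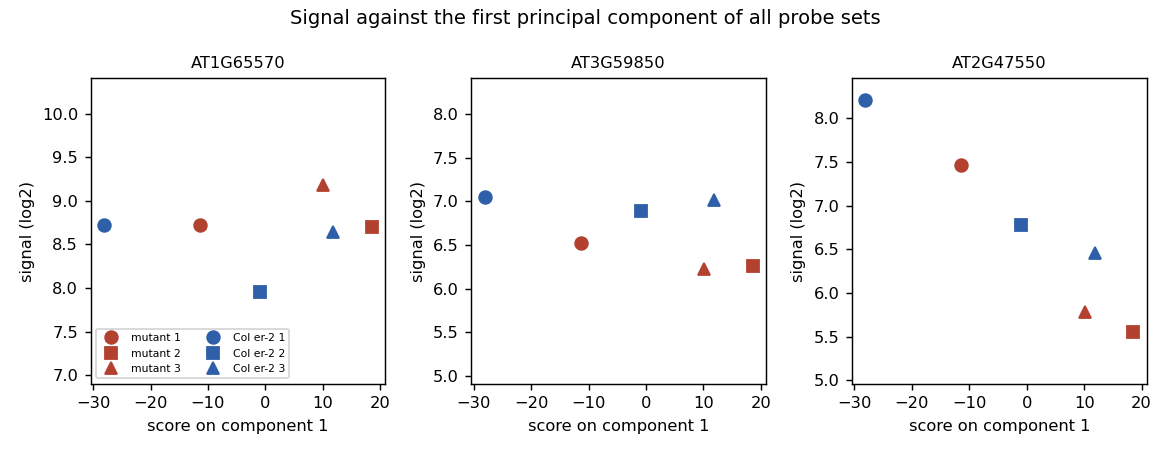
Signal (log2) of each gene against the array's score on the first principal component of all probe sets, 1 point an array, blue for Col er-2 and red for the mutant. AT2G47550 is lower towards higher scores in both genotypes (r = -0.97), and AT3G59850 is lower on the mutant arrays along its whole length.

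The genes with the most similar course over the 6 arrays were taken from the named genes with an SD of at least 0.2 over the arrays. For AT1G65570 they were AT3G46170, AT4G39160 and AT5G50890, with r of 0.92, 0.91 and 0.90. For AT3G59850 they were AT1G08590, AT3G21770 and AT3G01720, with r of 0.99, 0.98 and 0.98. These genes had lower mean signals in the mutant by -0.51, -0.70 and -0.39 on the log2 scale. None of them passed the threshold (limma adjusted p = 0.165, 0.211 and 0.380). Since they were picked for following AT3G59850 over the same arrays, their direction follows from the choice and adds no support. For AT2G47550 they were AT2G30930, AT3G51730 and AT3G19390, with r of 0.99, 0.98 and 0.98. AT3G19390 showed the same high first replicates, at 9.21, 7.82 and 8.08 in the mutant and 10.12, 8.58 and 8.71 in Col er-2. The highest values of r over so many genes and only 6 arrays are high by selection. The course of AT3G19390 follows from the same choice.

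The other genes that build, cleave or bind pectin were read from lists of 233 loci, of which 141 could be named on the array, 138 beside the 3 genes above. In these bulk samples a change in the share of a cell type and a change in RNA per cell cannot be told apart. Of the 138, 0 passed the adjusted threshold in limma. An unadjusted p under 0.05 was reached by 12 lower and 4 higher genes. That is 8.70% and 2.90% of the list, beside 3.26% and 4.21% of all probe sets. Mean signals were lower in the mutant for 86 of 138, or 62.3%, beside 47.4% of all probe sets. The median difference of the list was -0.026 on the log2 scale and that of all probe sets 0.0076. Median centring of the arrays, whose medians were higher in the mutant, moved the lower share to 73.2% for the list and 55.9% for all probe sets. The lower share of the list was 51.4% without mutant replicate 1 and 50.7% without wild-type replicate 3, where that of all probe sets was 42.8% and 42.6%. With any other single array left out it was 62.3% to 71.0%, where that of all probe sets was 46.8% to 52.3%. Without replicate 1 of both genotypes it was 55.8%, beside 46.0% of all probe sets. Of the 138 genes, 78 had a mean signal below the 35th percentile of all probe sets, 4.67, where no detection call was available. Among the other 60, 37 were lower in the mutant (61.7%, beside 43.5% of all such probe sets), 10 of them with an unadjusted p under 0.05 (16.7% beside 4.34%), as had 4 of the higher ones (6.67% beside 6.05%).

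**Figure D4:**
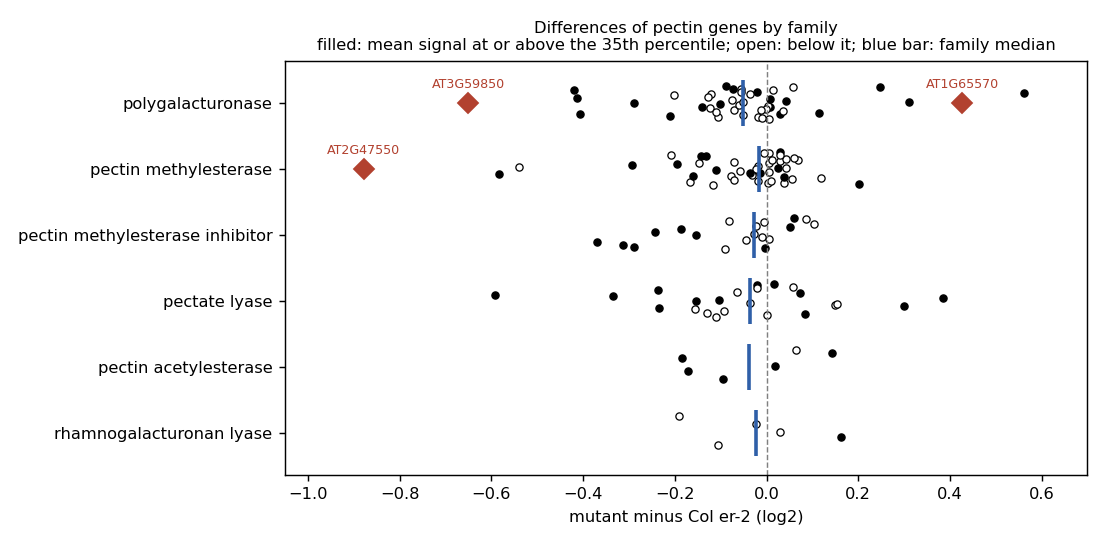
Mutant minus Col er-2 difference (log2) of the named genes of 6 enzyme and inhibitor families, 1 point a gene, filled where the mean signal is at or above the 35th percentile of all probe sets and open where it is below, with a blue bar at the family median. Red diamonds are AT1G65570, AT3G59850 and AT2G47550; in these 6 families the medians of the other members lie between -0.052 and -0.016, and none of the genes shown passed the adjusted threshold.

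Polygalacturonases spread to both sides. Of the 41 named beside AT1G65570 and AT3G59850, 13 had higher and 28 lower means in the mutant, with a median difference of -0.052. None passed the adjusted threshold. An unadjusted p under 0.05 was found for 4 lower and 2 higher, or 9.76% and 4.88%, beside 3.26% and 4.21% of all probe sets. In 6 of the 41 every mutant array was below every wild-type array, and in 2 every mutant array was above. That is 14.6% and 4.88%, beside 5.57% and 7.55% of all probe sets. The upper end of the list was AT3G15720, with signals of 8.10, 8.42 and 8.32 in the mutant and 7.37, 7.74 and 8.04 in Col er-2. Its difference of 0.56 had a limma adjusted p of 0.466. It was 0.39 without wild-type replicate 1 and 0.48 without replicate 1 of both genotypes. AT3G15720 thus had the sign of AT1G65570, and its lowest array was another one, wild-type replicate 1. The lower end beside AT3G59850 was AT2G43880, at 8.47, 8.23 and 8.52 in the mutant and 9.07, 8.66 and 8.74 in Col er-2, a difference of -0.42 (adjusted p = 0.500). AT2G43870 and AT2G43890 adjoin AT2G43880 in locus order, and AT2G43860 is close by. They were chosen after their values were seen and differed by -0.29 for AT2G43870, -0.21 for AT2G43860 and 0.035 for AT2G43890, whose signal was below the 35th percentile. Whether transcripts of such related neighbours share hybridisation was not tested. AT1G19170, with one of the highest mean signals of the list, differed by 0.03.

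Pectin methylesterases other than AT2G47550 had lower means in 23 of 42 genes and higher means in 19, with a median difference of -0.016. Of them 4, all lower, had an unadjusted p under 0.05, or 9.52%, beside 3.26% of all probe sets. AT3G10720, the member with the highest mean signal, had mutant signals of 10.05, 9.30 and 9.42 and wild-type signals of 10.44, 10.01 and 10.08. Its first replicates were the highest of each genotype, as for AT2G47550, by which the groups overlapped. The difference of -0.58 had a limma adjusted p of 0.554, and it was -0.68 without replicate 1 of both genotypes. ATPMEPCRB (AT4G02330), singled out after its values were seen, had signals of 4.33, 4.08 and 4.26 in the mutant and 4.84, 4.65 and 4.81 in Col er-2. It had the smallest adjusted p of the list, 0.196, with a difference of -0.54, and its mean over the arrays lay below the 35th percentile. AT5G51500 and AT1G02810, also among the members with the highest mean signals, differed by -0.16 and 0.03. The highest difference was that of AT5G64640, at 0.20, and it was 0.08 without wild-type replicate 1 and 0.16 without replicate 1 of both genotypes.

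Inhibitors of pectin methylesterases had lower means in 14 of 19 genes, with a median of -0.028 and 0 past the threshold in limma. At an unadjusted p under 0.05 there were 2, both lower, or 10.5%, beside 3.26% of all probe sets. One of these 2, AT4G25260, had a mean of 9.31 ± 0.15 (SD, n = 3) in Col er-2 and of 9.07 ± 0.06 in the mutant. Its groups did not overlap, and the difference of -0.24 had a limma adjusted p of 0.626. AT3G47380 had the lowest difference, -0.37, and its first replicates were high in both genotypes, at 8.26 against 7.22 and 7.79 in the mutant and at 8.80 against 7.59 and 7.99 in Col er-2. Without wild-type replicate 1 it differed by -0.034, and without replicate 1 of both genotypes by -0.29. AT1G62770, singled out after its values were seen, had the same course, at 5.76, 4.56 and 5.07 in the mutant and 6.04, 5.04 and 5.16 in Col er-2. AT5G62340, with the highest mean signal of the list, differed by -0.0040, AT5G62350 by -0.15 and APPB1 by 0.10, the last with a mean signal below the 35th percentile.

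A first replicate above both others in each genotype was seen in 8 of the 60 pectin genes at or above the 35th percentile, or 13.3%, beside 15.5% of all such probe sets. AT2G47550 and AT3G59850 had that order too, the latter by only 0.28 in the mutant and 0.09 in Col er-2. The opposite order, a first replicate below both others in each genotype, was seen in 17 of the 60. That is 28.3%, beside 20.4% of all such probe sets, and AT3G15720, AT3G53190 and AT4G24780 were among the 17.

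**Figure D5:**
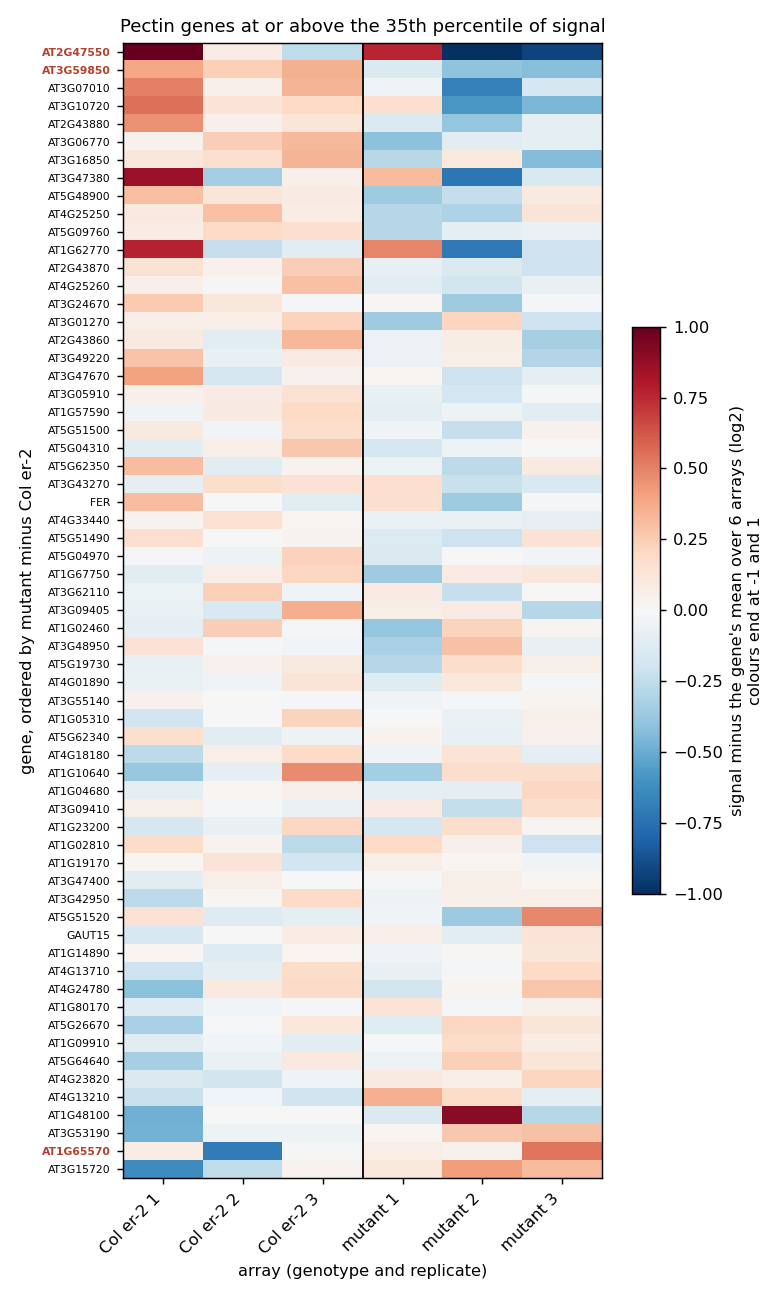
Signal minus the gene's own mean over 6 arrays (log2, colours end at -1 and 1) for pectin genes with a mean signal at or above the 35th percentile, 1 row a gene ordered by the mutant minus Col er-2 difference and 1 column an array. AT1G65570, AT3G59850 and AT2G47550 are in red type; replicate 1 is high in both genotypes in the rows of AT2G47550, AT3G47380 and AT1G62770, and the genotypes are apart in that of AT3G59850.

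Pectate lyases, which cleave the same demethylated chain as polygalacturonases, had lower means in 14 of 23 genes and higher means in 9, with a median of -0.036. At an unadjusted p under 0.05 there were 2 lower and 2 higher (8.70% each, beside 3.26% and 4.21% of all probe sets). After adjustment 0 passed in limma. AT3G07010 was at 7.66, 7.02 and 7.53 in the mutant and 8.21, 7.75 and 8.04 in Col er-2. All its mutant arrays were below the wild-type arrays, and the difference of -0.59 had a limma adjusted p of 0.489. AT3G53190 lay at the other end, at 9.53, 9.78 and 9.80 in the mutant and 9.04, 9.46 and 9.46 in Col er-2. Its groups did not overlap either, and the difference of 0.38 had a limma adjusted p of 0.567. It was 0.24 without wild-type replicate 1 and 0.33 without replicate 1 of both genotypes. AT4G24780 and AT1G04680, the members with the highest mean signals, differed by 0.08 and 0.016, and AT5G48900 by -0.34.

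The remaining pectin genes showed smaller differences. Pectin acetylesterases, which remove acetyl groups, had 3 of 6 genes lower and a range from -0.18 for AT3G05910 to 0.14 for AT5G26670, and AT1G57590 differed by -0.17. The mutant arrays of AT3G05910 and AT1G57590 were below the wild-type arrays (33.3% of the list, beside 5.57% of all probe sets), with limma adjusted p of 0.679 and 0.740. AT5G26670 differed by 0.016 without wild-type replicate 1 and by 0.11 without replicate 1 of both genotypes. Rhamnogalacturonan lyases, which cut the branched pectin backbone, had 3 of 5 genes lower and ran from -0.19 for AT1G09890 to 0.16 for AT1G09910, while AT4G37950 differed by 0.03. Of the synthesis list only GAUT15, of the galacturonosyltransferase family that builds homogalacturonan, was named, and it differed by 0.06. Of the receptors that bind pectin only FERONIA (FER) was named, and it differed by -0.14. For GAUT15 and FER the sign turned when 1 array was left out, with ranges of -0.012 to 0.12 and -0.26 to 0.0041. The 2 polygalacturonase-inhibiting proteins could not be named here.

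Markers of the cell types in the dissected pieces were read beside these values, and 0 of them passed the adjusted threshold in limma. Only scpl48 had an unadjusted p under 0.05, on the higher side, as had 4.21% of all probe sets. Of 10 root cap genes, besides AT1G65570 itself, 1 could be named, the receptor kinase gene CR4 (ACR4), at 5.55 to 5.68 in the mutant and 5.49 to 5.55 in Col er-2. How much root cap the pieces held could therefore hardly be read, and the part of it in the AT1G65570 signal was not tested. Of 7 markers of cell death in the lateral root cap 3 were named, and their mean level over the 3 ranged from 6.51 to 6.82 in the mutant and from 6.55 to 6.74 in Col er-2. One of these, scpl48, a serine carboxypeptidase-like gene, had a higher mean in the mutant by 0.30 (limma adjusted p = 0.653). AT4G04460 differed by 0.0076 and AT4G18425 by -0.19, the last with a mean signal below the 35th percentile. Root hair expansins, 2 of 11 genes of hair cells and epidermis, averaged 4.41 to 4.47 in the mutant and 4.37 to 4.71 in Col er-2. EXPA7 differed by -0.17, with its mutant arrays below the wild-type arrays, and EXPA18 by -0.11, and both had mean signals below the 35th percentile. Photosynthesis genes of green tissue, 2 of 5, averaged 5.15 to 5.36 in the mutant and 5.25 to 5.86 in Col er-2. RCA was at 4.79, 4.99 and 4.95 in the mutant and 5.04, 5.02 and 5.67 in Col er-2, with no overlap, and differed by -0.33 (limma adjusted p = 0.741), while LHCB4.1 differed by -0.22. Without wild-type replicate 3 these differences were -0.12 and -0.075. As list averages, the ranges of the genotypes overlapped in all 4 marker lists. The part of these cell types in the pectin gene signals was not tested.

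By locus order AT3G59850 lies on chromosome 3, which carries none of the mutated genes. Between AT1G65570 and CNA on chromosome 1 there are 1503 annotated loci, and between AT2G47550 and PHB on chromosome 2 there are 1477. The files name no genome build, so no coordinates are given.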

How the data were processed

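The authors deposited log2 signals, 1 for each probe set on each array; per the submitters' processing notes, Affymetrix Expression Console, RMA and limma were used, without version or role. That the values are RMA signals (background corrected, quantile normalized, summarised) is read from those names and the range of values. RMA compresses differences of dim probe sets, and quantile normalization hides a shift shared by most genes. Depth is not defined for arrays, and with 3 arrays per genotype their number limits the precision. No batch is given by the labels.

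Of 22810 probe sets, 64 controls were left out. The other 22746 were compared between mutant and Col er-2 in R 4.3.3 by limma 3.58.1 (lmFit, eBayes with default options, Benjamini-Hochberg, adjusted p under 0.05). The fit was also run on 5 simulated sets, whose outcome is not given here and adds no support. A platform probe table named 1 gene for 13513 probe sets and several for 503, and 8730 were not listed. Loci came from the TAIR10.1 gene table for 13484. Genes were read by the probe set with the highest mean.

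The genes and lists were chosen with earlier results of these data known. Family membership came from a hand-written list of loci, since the tables used describe few of these genes; 0 entries were left out, as far as the tables give descriptions. The rule named the 3 genes, the 3 named genes most correlated with each, and in each list the called members, the 3 with the highest mean and those with the highest and lowest difference; others are said to be chosen after their values were seen. As alternatives, single arrays were left out, or the fit used the replicate number as a block, trend and robust options, median centring, repeated quantile normalization, array weights, a filter at the 35th percentile and an equal-variance test.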

Additional observations from a re-analysis of the deposited data

How the results depend on the processing

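The differences of AT1G65570, AT3G59850 and AT2G47550 kept their sign in all 15 alternatives each, between 0.18 and 0.70, -0.74 and -0.60, and -1.48 and -0.35. AT1G65570 passed in 0 of them (adjusted p 0.350 to 0.999) and was at 0.70 with array weights. With the replicate number as a block AT3G59850 passed at -0.65 (limma Benjamini-Hochberg adjusted p = 0.0352) and AT2G47550 at -0.88 (0.0313), and the list of other pectin genes had 1 call, AT3G07010, in place of 0. Differences between same-numbered arrays were -0.53, -0.64 and -0.78 for AT3G59850, -0.74, -1.23 and -0.67 for AT2G47550, and -0.0079, 0.74 and 0.55 for AT1G65570. Equal numbers do not show that arrays were paired: the deviations from the genotype means correlated at 0.504, 0.065 and 0.176 for replicates 1, 2 and 3, and mutant replicate 2 was closer to wild-type replicate 3 (0.317). Against 6 calls over all probe sets, the block gave 109, eBayes with trend 14, trend with robust 27, repeated quantile normalization 11, array weights 22 and the equal-variance test 1, and leaving out 1 array gave 1 to 8. The cause was not tested. The median of the pectin list was -0.092 with dim probe sets left out, by construction over fewer genes, and -0.073 to -0.00079 with 1 array left out. The other named genes gave 712 recomputed values, of which 674 kept sign and side of the threshold, 7 were newly past it (PHV, AT3G07010, AT2G30930 and AT3G19390) and 31 turned sign, none of the latter past it. These counts include the alternatives in which the sign could not turn. With 1 array left out, genes that turned sign ran from -0.095 to 0.14 (AT1G02810), -0.082 to 0.066 (AT1G04680), -0.060 to 0.1003 (AT1G19170), -0.0998 to 0.198 (AT4G24780), -0.155 to 0.18 (AT4G04460), -0.061 to 0.079 (AT5G62340), -0.027 to 0.086 (AT4G37950), -0.0066 to 0.077 (AT2G43890), -0.267 to 0.011 (EXPA18), -0.255 to 0.0041 (FER), -0.012 to 0.12 (GAUT15), -0.394 to 0.00062 (AT3G51730) and -0.605 to 0.025 (AT1G62770). Array weights gave -0.067 for AT1G02810, -0.037 for AT1G19170, -0.060 for AT4G04460 and 0.048 for AT5G62340. Median centring gave -0.0085 for AT1G04680 and -0.017 for AT4G04460, and repeated quantile normalization -0.023 for AT4G04460 and 0.010 for AT5G62340. Without replicate 1 of both genotypes AT4G04460 was at -0.066, AT5G62340 at 0.062 and GAUT15 at -0.030. The cause was not tested. For 29 of these 48 other genes, none of them called, leaving out 1 array changed the difference by a factor above 1.5. A further probe set for any of the 3 genes could not be tried, since each had 1.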
